A study of Homo sapiens with 15 samples.

Results

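The BCL2 family was examined in PE/CA-PJ41, a human oral squamous carcinoma cell line, with and without a stably integrated cytoglobin transgene. The 10 genes BCL2, BCL2L1, BCL2L2, MCL1, BAX, BAK1, BAD, BID, BIK and BCL2L11 were chosen by name, and their probes were the non-control probes whose RefSeq transcript belongs to one of these genes. All 10 had a probe, among 19483 genes with a named RefSeq probe on the array. They were covered by 15 of the 42405 distinct probes, in 52 spots on each array. One probe of BCL2 failed the filter on dim probes, so 14 probes covering 10 genes were tested.

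By their labels, the cells of the NCE group carried an empty transfection vector, whereas the study's own text in places calls NCE the un-transfected parent line. The cells of the CYGB+ group carried a plasmid of the pCMV6 type with the human cytoglobin cDNA, so that expression was driven by a viral promoter, and stable clones were picked with cloning rings under G418. According to the methods of the study the CYGB+ cells of the array experiment were 1 clone, so a difference between the groups cannot be told apart from a difference between this clone and the control cells. Neither group received a drug in the labels of the arrays, and both were kept for a day in supplemented medium before RNA was taken on separate occasions. Each group had 3 biological replicates, hybridised to 3 arrays each in NCE (9 arrays) and 2 arrays each in CYGB+ (6 arrays). Below, NCE and CYGB+ mean the arrays so labelled.

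The family decides whether the outer mitochondrial membrane holds or is opened during apoptosis. The prosurvival members BCL2, BCL2L1 (BCL-XL), BCL2L2 (BCL-W) and MCL1 bind and restrain the effectors BAX and BAK1, which otherwise form pores through which cytochrome c leaves the mitochondrion. The BH3-only members BAD, BID, BIK and BCL2L11 (BIM) bind the prosurvival members or the effectors and thereby promote cell death. Many of these proteins are regulated after translation, and the arrays measure only their mRNA.

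Promoter sequence from RefSeq (GRCh38.p14) was available for 7 of the 10 members in 13 windows, and MCL1, BCL2L2 and BIK had no entry. The windows shown are the 250 bases before the transcription start of BCL2L1, the prosurvival member whose mRNA was lower in CYGB+, of BAX, an effector, and of BCL2L11, the BH3-only member with most probes. Capitals mark matches on either strand to GGGCGG (the GC box), to CCAAT (the box of that name), to TATAAA (the TATA motif), to CCGGAAG (an ETS motif), to GTAAACA (a forkhead motif) or to CACGTG (an E-box). No match of one motif overlapped a match of another in these windows.
BCL2L1, chr20:31723964-31724213, minus strand: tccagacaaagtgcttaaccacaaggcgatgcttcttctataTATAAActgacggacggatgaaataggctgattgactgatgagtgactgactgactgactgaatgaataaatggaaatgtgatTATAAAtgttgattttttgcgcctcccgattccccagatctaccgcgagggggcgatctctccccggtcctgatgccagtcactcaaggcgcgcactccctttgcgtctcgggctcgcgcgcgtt
BAX, chr19:48954625-48954874, plus strand: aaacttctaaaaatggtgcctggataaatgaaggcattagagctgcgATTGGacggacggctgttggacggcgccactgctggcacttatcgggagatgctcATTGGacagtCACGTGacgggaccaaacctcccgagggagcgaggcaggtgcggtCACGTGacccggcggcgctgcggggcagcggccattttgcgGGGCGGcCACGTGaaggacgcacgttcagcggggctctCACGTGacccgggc
BCL2L11, chr2:111120664-111120913, plus strand: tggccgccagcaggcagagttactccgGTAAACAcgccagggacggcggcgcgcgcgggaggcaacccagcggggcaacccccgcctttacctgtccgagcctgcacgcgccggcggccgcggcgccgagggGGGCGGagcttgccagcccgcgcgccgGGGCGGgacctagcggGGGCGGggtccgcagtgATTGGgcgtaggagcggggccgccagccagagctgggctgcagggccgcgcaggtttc
The window of BCL2L1 shown held 2 matches to TATAAA, at -208 and -125 from the start, and none to the GC box. A second BCL2L1 start has its own window (chr20:31722869-31723118), with no match to any of these motifs. A TATAAA match was present in 3763 of all 35116 windows of this length, and in 1 of the 13 windows of the family. The window of BAX held 4 matches to CACGTG, a motif found in 6.3% of all windows and in 3 of the family's 13. The others of these 3 are overlapping BID windows that share the same match. The window of BCL2L11 held 3 GC boxes and the family's only match to GTAAACA, at -223, a motif present in 3.0% of all windows. GC boxes were found in 9 of the 13 family windows, against 42.6% of all windows, and the median GC content was 68.8% against 58.0%. The 9 windows belonged to BAD, BAK1, BAX, BCL2L11 and BID. Several windows of BID and of BAD overlap, so the same box is counted in more than 1 window and the windows are not independent. These matches are descriptions of letters, and binding was not measured.

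The slides and a few arrays bear on every value that follows. Slide 1 held 8 NCE arrays, and slide 2 held 1 NCE array, of biological replicate 1, and all 6 CYGB+ arrays, so slide and group were almost the same division. Values fitted with slide as a term, and values from slide 2 alone, are given beside the results for this reason. The fit with slide as a term used all arrays, with replicate as a random effect, and not 3 against 3 replicate means. Its adjusted p therefore compares with that of the random-effect fit without slide, and not with that of the main fit. Array repeat 1 of CYGB+ replicate 1 stood apart from the others. Its median correlation with its own group was 0.941, against 0.975 to 0.992 on the other arrays, and it gave the highest or lowest value among the CYGB+ arrays for 10 of the 14 tested family probes. The labels state that every sample carried cyanine 3, whereas the methods of the study assign cyanine 5 to the control, and the green channel was read on all arrays. The red channel also carried signal, with 55.6% to 61.4% of probes well above background, and was not used. The single CYGB probe did not separate the groups: its array values ran from 11.25 to 12.36 in NCE and from 11.29 to 12.50 in CYGB+, a log2 difference of -0.07 (SE 0.25, limma adjusted p = 0.879). The probe was well above background on all 9 NCE arrays, although the study describes the parent line as one that does not express cytoglobin. Its position relative to the transfected cDNA is not given in the sources used here. The labels were therefore not checked by the transgene, and every direction below rests on the labels alone. All 12 squamous epithelial markers were above background, and the linear signal summed over their 14 probes was 16.32 to 16.48 on the log2 scale in the NCE replicates and 16.16 to 16.55 in the CYGB+ replicates. Of these 14 probes, 3 were called lower and 0 higher (21.4%, against 10.6% of all tested probes), and the median difference of the 14 was -0.254. Those called were KRT6A, with a difference of -0.51, ITGA6, with -1.12 on 1 of its 2 probes, and ITGB4, with -0.70. At an unadjusted limma p under 0.05, 7 were lower and 1 higher, against 27.4% of all tested probes in either direction. The higher one was KRT14, with a difference of 0.72. Of 8 fibroblast markers, COL1A1 and COL1A2 were above background, and their summed level was 8.25 to 8.46 in NCE and 7.43 to 7.66 in CYGB+ (9.52 to 9.63 and 9.22 to 9.30 over the whole list). COL1A2, a collagen chain, was called lower, with a difference of -1.33 (adjusted p = 0.00337). Of 5 leukocyte markers PTPRC and CD3E failed the filter, and CD14, CD68 and ITGAM passed it, with a summed level of 9.51 to 9.78 in NCE and 9.52 to 9.79 in CYGB+ (10.07 to 10.27 and 10.09 to 10.25 over the whole list). CDH5 was the only one of 4 endothelial markers to pass the filter, at 6.42 to 6.45 in NCE and 6.36 to 6.58 in CYGB+ (8.64 to 10.02 and 8.64 to 8.74 over the whole list). The part of these marker levels in the results was not tested.

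Of the 14 family probes tested, 2 were lower in CYGB+ at a limma adjusted p under 0.05 and 0 were higher. At an unadjusted p under 0.05, 3 were lower and 3 higher (42.9% of the family's probes, against 27.4% of all tested probes), and the methods' t-test after Benjamini-Hochberg adjustment also called 0 higher. The 2 lower probes belonged to BIK, a BH3-only promoter of apoptosis that resides mainly at the endoplasmic reticulum, and to BCL2L1, the prosurvival BCL-XL. Called probes made up 14.3% of the family's tested probes and 10.6% of all 22823 probes tested, so that the share was near the background of the array; 5.42% of all probes were called lower and 5.19% higher. The median log2 difference, CYGB+ minus NCE, was 0.114 over the family and 0.001 over all tested probes. The size of the difference, without its sign, had a median of 0.30 over the family and 0.178 over all tested probes. The difference was positive for 9 probes and negative for 5. The replicates of the groups did not overlap for 6 of the 14 probes (42.9%), 3 in each direction, against 33.4% of all tested probes. Among the 3 higher was the BCL2 probe A_33_P3355185, which lay near background. It passed the filter only through CYGB+, being above background on 2 of 9 NCE and 4 of 6 CYGB+ arrays. Its direction is therefore no evidence, and it also enters the 9 positive differences and the family median. BIK was the 1 family probe called at 1.5-fold or more, which 5.92% of all tested probes were. In bulk RNA, fewer cells that express a gene and less of its mRNA per cell cannot be told apart.

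**Figure D1:**
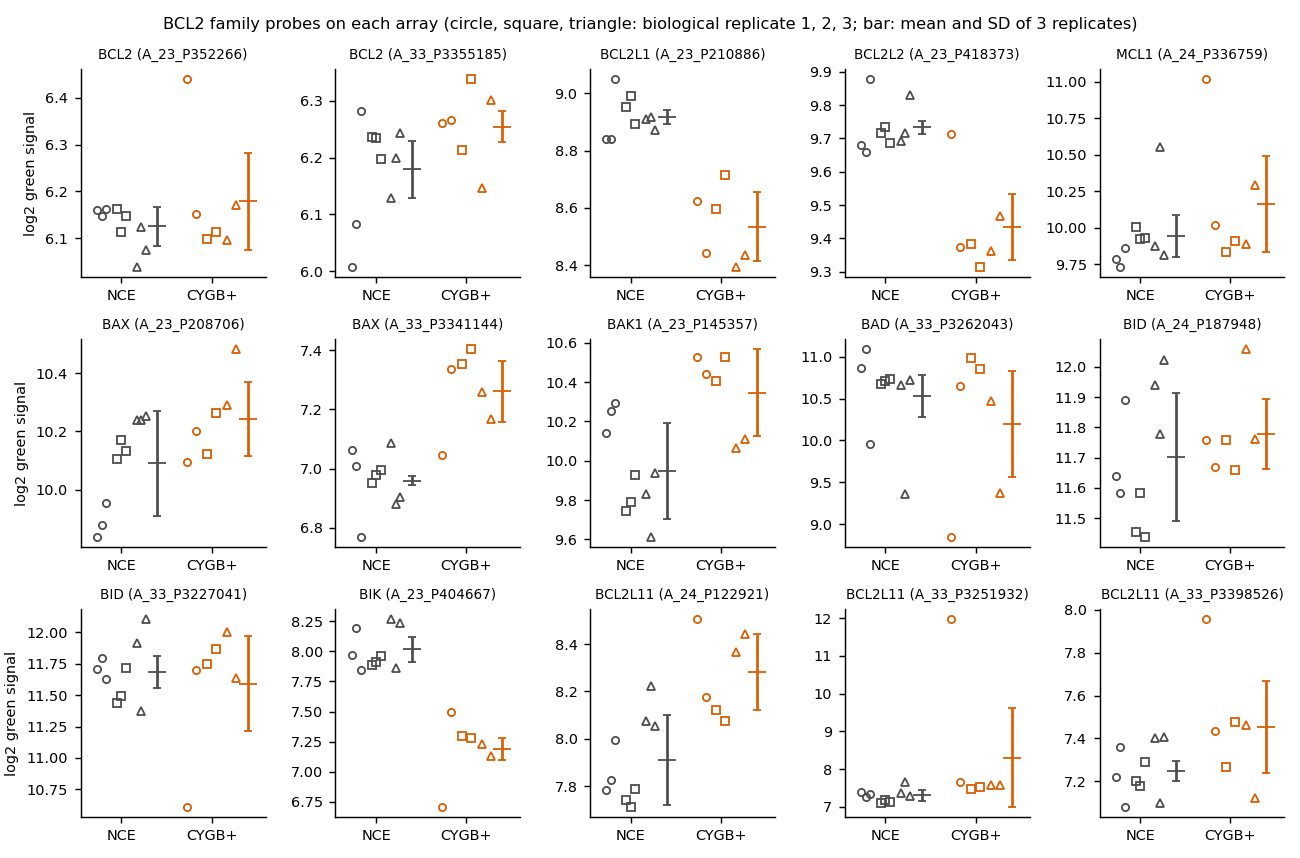
Log2 green signal (y axis) of the 15 BCL2 family probes on 9 NCE and 6 CYGB+ arrays, 1 panel per probe with its own scale. Symbols mark the biological replicate, and the bar to the right of each group gives the mean and SD of the 3 replicate means. The groups are separate for BIK and BCL2L1, and 1 CYGB+ array lies far from the rest for BCL2L11 (A_33_P3251932) and for the BID probe A_33_P3227041.

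BIK mRNA was lower in every CYGB+ array than in any NCE array. The 9 NCE arrays had a lowest, median and highest log2 signal of 7.85, 7.96 and 8.27, and the 6 CYGB+ arrays 6.70, 7.25 and 7.49. The biological replicates averaged 8.00, 7.92 and 8.13 in NCE and 7.10, 7.29 and 7.18 in CYGB+. The highest CYGB+ array thus stayed below the lowest NCE array. BIK fell by 0.83 on the log2 scale (95% interval -1.06 to -0.60, SE 0.10, n = 3 against 3, limma adjusted p = 0.00657), which was 1.77-fold lower. On the scanner's processed signal scaled to the 75th percentile, which has another background correction and scaling, the difference was -1.25. With slide as a term it was -0.64 (adjusted p = 0.192), and on slide 2 alone it was -0.66 (adjusted p = 0.302). The interval with slide as a term was -1.15 to -0.14. The NCE array on slide 2 read 7.85, the lowest of the 9. Of all probes, 3.37% passed the threshold with slide as a term.

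Among the prosurvival members, BCL2L1 mRNA was lower in CYGB+ by a smaller margin. Its probe, printed in 10 spots on each array, gave a lowest, median and highest log2 signal of 8.84, 8.91 and 9.05 on the NCE arrays and 8.39, 8.52 and 8.71 on the CYGB+ arrays. The array values of the groups did not overlap. The replicate means were 8.91, 8.95 and 8.90 in NCE and 8.53, 8.65 and 8.41 in CYGB+. BCL2L1 fell by 0.38 on the log2 scale (95% interval -0.60 to -0.16, SE 0.09, n = 3 against 3, adjusted p = 0.0444), or 1.31-fold. The SD among the 10 spots of one array ranged from 0.05 to 0.23. With the replicate number as a block the adjusted p was 0.0531, and leaving out any 1 replicate other than CYGB+ replicate 2 raised it above the threshold, to between 0.0646 and 0.162. With slide as a term, in the fit over all arrays, the difference was -0.54 (limma adjusted p = 0.0240). The same fit without slide gave -0.38 (limma adjusted p = 0.000845). On slide 2 alone the difference was -0.52.

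BCL2L2, which codes for the prosurvival BCL-W, was not called. Its replicates averaged 9.74, 9.71 and 9.75 in NCE and 9.54, 9.35 and 9.42 in CYGB+. All CYGB+ replicates therefore lay below all NCE replicates, as was the case for 16.9% of all tested probes. The log2 difference was -0.30 (95% interval -0.51 to -0.09, adjusted p = 0.0776). Array repeat 1 of CYGB+ replicate 1 read 9.71, within the NCE range of 9.66 to 9.88, while the other CYGB+ arrays read 9.31 to 9.47. Without that array the difference was -0.35 and passed the threshold (adjusted p = 0.0146). With slide as a term it was -0.46 (adjusted p = 0.0812).

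MCL1, a short-lived prosurvival protein, was measured at 9.79, 9.95 and 10.08 in the NCE replicates and at 10.52, 9.87 and 10.09 in the CYGB+ replicates, which overlapped. The log2 difference of 0.22 had a 95% interval of -0.19 to 0.63 (adjusted p = 0.464). Without the array that stood apart, which read 11.02, it was 0.05. BCL2 itself was close to background. One of its probes (A_33_P3355185) was well above background on 2 of 9 NCE and 4 of 6 CYGB+ arrays, with replicates at 6.12, 6.22 and 6.19 in NCE and 6.26, 6.28 and 6.22 in CYGB+. The difference was 0.08 (95% interval -0.12 to 0.27, adjusted p = 0.594), and -0.06 with slide as a term. The second BCL2 probe (A_23_P352266) was not well above background on any NCE array and was so on 1 of 6 CYGB+ arrays, and it was not tested. The probes were matched to different BCL2 transcripts, so the difference of the tested probe does not stand for the gene as a whole.

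**Figure D2:**
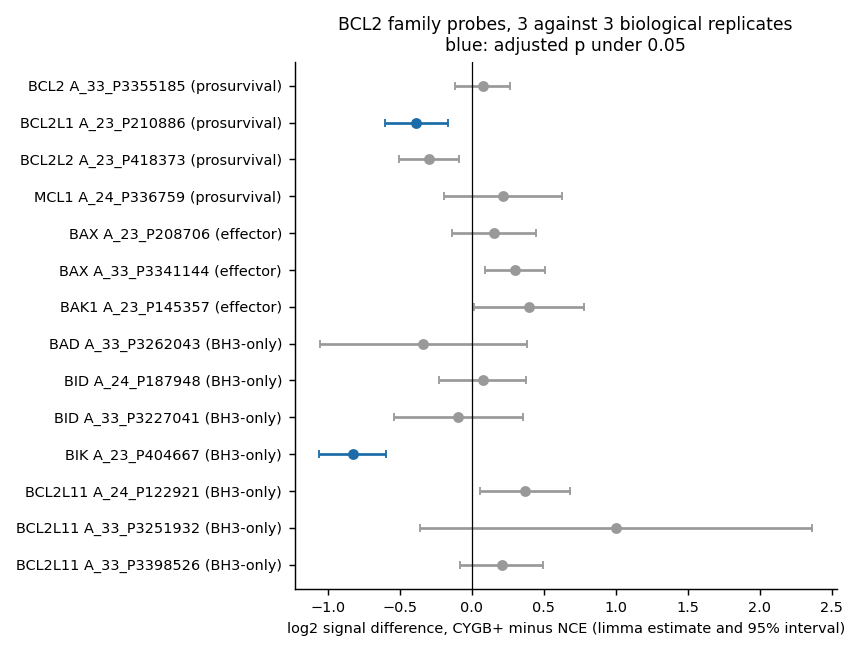
Log2 signal difference, CYGB+ minus NCE (x axis), with its 95% interval from the limma fit over 3 against 3 biological replicates, for the 14 tested probes ordered by role. The points of BIK and BCL2L1 are blue, at -0.83 and -0.38, and the widest interval is that of the BCL2L11 probe A_33_P3251932.

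The effectors were measured higher in CYGB+ without passing the threshold. BAX had a pair of probes. The dimmer (A_33_P3341144) read 6.95, 6.97 and 6.96 in the NCE replicates and 7.19, 7.38 and 7.21 in the CYGB+ replicates. These did not overlap, in the direction seen for 16.5% of all tested probes. Its log2 difference was 0.30 (95% interval 0.09 to 0.51, adjusted p = 0.0771), and 0.63 on the scanner's processed signal (adjusted p = 0.0503). With slide as a term, in the fit over all arrays, it was 0.51 and passed the threshold (limma adjusted p = 0.0498). The same fit without slide gave 0.30 and also passed (limma adjusted p = 0.0115). On slide 2 alone the difference was 0.49. In the main fit without the array that stood apart it was 0.35 (adjusted p = 0.0215). The brighter BAX probe (A_23_P208706), in 10 spots, read 9.89, 10.14 and 10.24 in NCE and 10.15, 10.19 and 10.39 in CYGB+. These replicates overlapped, and the difference was 0.15 (95% interval -0.14 to 0.44, adjusted p = 0.468). The probes were matched to different BAX transcripts. BAK1 read 10.23, 9.82 and 9.79 in NCE and 10.48, 10.47 and 10.09 in CYGB+, a difference of 0.40 (95% interval 0.02 to 0.78, adjusted p = 0.167). NCE replicate 1 was the high one of its group, and read 10.142 and 10.255 on slide 1 and 10.292 on slide 2. No other NCE replicate was on slide 2, so slide and replicate cannot be told apart within it. Within slide 2 the BAK1 difference was 0.05 (adjusted p = 0.968), and with slide as a term it was 0.14 (adjusted p = 0.896).

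BCL2L11 codes for BIM, a BH3-only protein that binds all the prosurvival members, and its 3 probes all had positive differences, none of which passed the threshold. Probe A_24_P122921 read 7.87, 7.75 and 8.12 in NCE and 8.34, 8.10 and 8.40 in CYGB+. Only the lowest CYGB+ replicate fell within the NCE range. The difference was 0.37 (95% interval 0.06 to 0.68, adjusted p = 0.125), and 0.26 with slide as a term (adjusted p = 0.668). Probe A_33_P3251932 gave the largest difference of the family, 1.00, with a 95% interval of -0.36 to 2.36 (adjusted p = 0.314). It rested on 1 array, array repeat 1 of CYGB+ replicate 1, which read 11.99 while the other 5 CYGB+ arrays read 7.48 to 7.65 and the NCE arrays 7.10 to 7.67. Both spots of the probe were bright on that array, at 11.35 and 12.62. Without that array the difference was 0.28 (adjusted p = 0.0963). Probe A_33_P3398526, matched to the same transcript, read 7.96 on that array and 7.12 to 7.48 on the other CYGB+ arrays, with a difference of 0.21 over all arrays (adjusted p = 0.325) and 0.12 without it.

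BAD, which displaces BAX from prosurvival partners when it is not phosphorylated, varied more between arrays than between groups. The replicates averaged 10.64, 10.71 and 10.25 in NCE and 9.75, 10.93 and 9.92 in CYGB+. The SD between repeat arrays of one replicate was 0.57 in NCE and 0.87 in CYGB+, against a difference of -0.34 (95% interval -1.06 to 0.38, adjusted p = 0.523). The lowest BAD values, 8.84, 9.36 and 9.37, came from the 3 arrays with the lowest correlation to their own groups, and the same arrays gave the highest MCL1 values, 11.02, 10.56 and 10.29. Without these 3 arrays the BAD difference was 0.0007 (adjusted p = 0.997) and that of MCL1 was 0.06 (adjusted p = 0.620). With slide as a term the BAD difference was 0.35. BID, which caspase 8 cleaves to link death receptors to the mitochondrion, was bright and similar in the groups. Its probe A_24_P187948 averaged 11.70 ± 0.21 (SD, n = 3) in NCE and 11.78 ± 0.12 in CYGB+, a difference of 0.07 (95% interval -0.23 to 0.38, adjusted p = 0.755). A second probe of the same BID transcript, A_33_P3227041, averaged 11.69 ± 0.13 in NCE and 11.59 ± 0.38 in CYGB+, a difference of -0.09 (95% interval -0.54 to 0.35, adjusted p = 0.794).

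**Figure D3:**
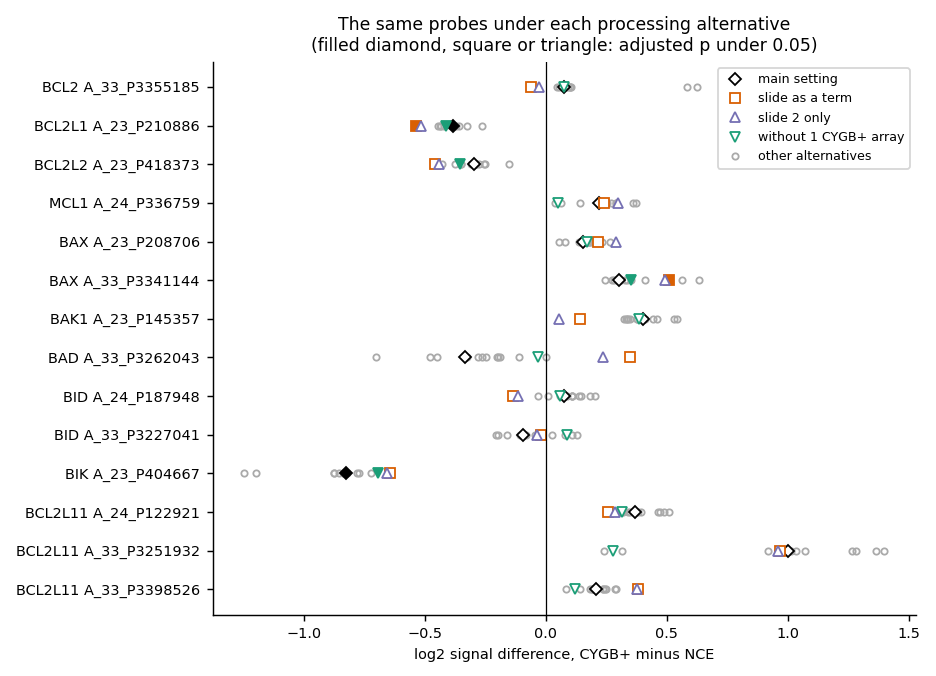
Log2 signal difference, CYGB+ minus NCE (x axis), of the 14 tested probes under the main setting and under each processing alternative. BIK stays between -1.25 and -0.64 and BCL2L1 between -0.54 and -0.26, whereas the BAD and BID differences fall on both sides of 0.

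The direction of the difference was the same under all alternatives run for BIK, BCL2L1, BCL2L2, MCL1, BAX, BAK1 and BCL2L11, and changed sign for BCL2, BAD and both BID probes. BIK was called in 17 of its 19 alternatives. BCL2L1 was called in 6 of 20, with an adjusted p between 0.000845 and 0.416. BCL2L2 was called in 4 of 20 and the dimmer BAX probe in 5 of 20. BAK1 and 2 of the BCL2L11 probes were called in 1 alternative each, and the probes of BCL2, MCL1, BAD and BID, the brighter BAX probe and the remaining BCL2L11 probe in 0.

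Genes around the family were read from 3 further lists. Of the other genes with BCL2 homology, 12 of 17 probes were above background, and 1 was called higher and 0 lower (8.33%, against 10.6% of all probes), with a median log2 difference of 0.184. At an unadjusted p under 0.05, 3 of its 12 probes were higher and 0 lower, against 27.4% of all tested probes in either direction. The methods' t-test called 0 after adjustment. Of the 3, the HRK probe passed the filter only through CYGB+, being above background on 2 of 9 NCE and 6 of 6 CYGB+ arrays. A BMF probe above background on 4 of 9 NCE and 0 of 6 CYGB+ arrays failed the filter. The direction of this count is therefore not independent of the filter. The called probe belonged to BCL2L13, a member of the outer mitochondrial membrane that acts in mitophagy, and was chosen for naming after its values were seen. It read 9.26, 9.18 and 9.25 in NCE and 9.86, 9.66 and 9.61 in CYGB+, a difference of 0.48 (SE 0.10, adjusted p = 0.0266). The other 2 BCL2L13 probes differed by 0.03 and 0.09, and with slide as a term the called probe differed by 0.03 (adjusted p = 0.985). The list's brightest probes, of BCL2L12, of the prosurvival BCL2A1 and of PMAIP1 (NOXA, a BH3-only protein that binds MCL1), differed by -0.02, 0.25 and 0.22, with adjusted p of 0.908, 0.263 and 0.559. With the replicate number as a block, 2 probes of this list were called in place of 1.

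Genes of mitochondrial exit and the apoptosome had 22 probes, all above background. Of these, 2 were called higher and 1 lower (13.6%, against 10.6% of all tested probes), with a median difference of 0.045. VDAC1, a channel of the outer mitochondrial membrane and the brightest probe of the list, was higher by 0.57 (SE 0.11, adjusted p = 0.0245), from 13.11, 13.24 and 13.36 to 13.76, 13.68 and 13.96, while its second probe differed by 0.34 (adjusted p = 0.414). The other 2 called genes were named after their values were seen. HTRA2, a mitochondrial protease that antagonises inhibitors of apoptosis once released, was higher by 0.51 (adjusted p = 0.0393). The channel VDAC3 was lower, with a difference of -0.49 (adjusted p = 0.0370). With slide as a term the differences were 0.56 for VDAC1, 0.50 for HTRA2 and -0.09 for VDAC3, and 0 of the list's probes were called. BIRC5 (survivin), which was bright, differed by 0.05 (adjusted p = 0.806), and VDAC2, whose probes had opposite signs, by -0.19 (adjusted p = 0.440) on the brighter probe.

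**Figure D4:**
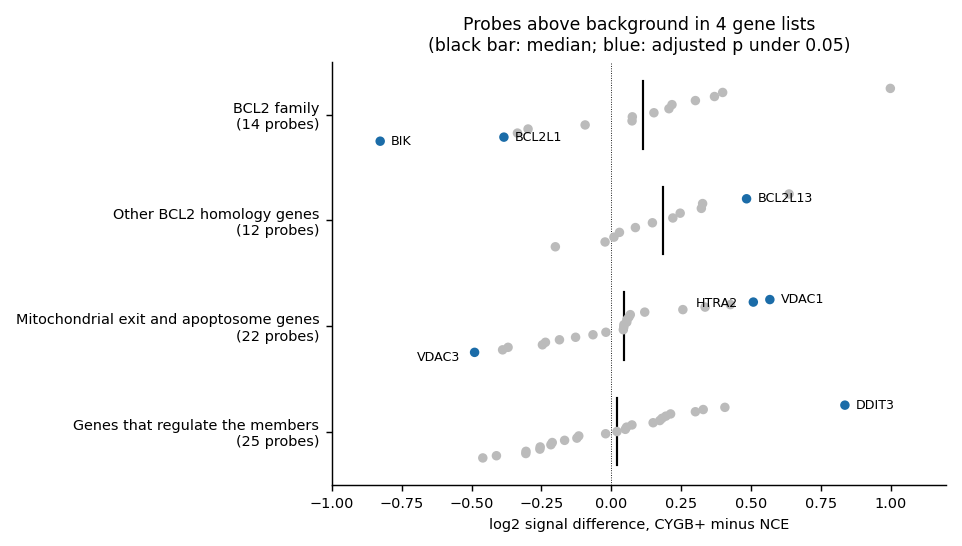
Log2 signal difference, CYGB+ minus NCE (x axis), of every probe above background in the BCL2 family and in 3 neighbouring gene lists, with the list median as a black bar. Called probes are blue and named, and the medians lie at 0.114, 0.184, 0.045 and 0.020 from top to bottom.

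Among genes known to regulate the members, 25 of 26 probes were above background. Of these, 1 was called higher and 0 lower (4%, against 10.6% of all tested probes), and the median difference was 0.020. Unadjusted, 4 of the 25 were higher and 3 lower at a limma p under 0.05, against 27.4% of all tested probes in either direction. The methods' t-test called 0 after adjustment. The called gene was DDIT3 (CHOP), a transcription factor of the endoplasmic reticulum stress response known to act on BCL2 and BCL2L11 transcription. It read 8.35, 8.64 and 8.65 in the NCE replicates and 9.69, 9.11 and 9.34 in the CYGB+ replicates. The groups did not overlap, and DDIT3 rose by 0.84 (SE 0.16, adjusted p = 0.0245), or 1.79-fold. With slide as a term the difference was 0.99 (limma adjusted p = 0.0191), in a fit over all arrays whose adjusted p does not compare with the main one. On slide 2 alone it was 1.06. Leaving out any 1 NCE replicate, or CYGB+ replicate 3, left DDIT3 at 0.74 to 0.89 with an adjusted p of 0.0598 to 0.0811. The brightest probes of this list, a pair for the BIM- and BMF-binding dynein light chain DYNLL1 and one for the 14-3-3 protein YWHAB, which holds phosphorylated BAD, differed by -0.31, -0.21 and -0.26 (adjusted p = 0.0645, 0.203 and 0.211). With the replicate number as a block, 2 probes of this list were called in place of 1.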

How the data were processed

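The measurements were Agilent 8x60K arrays of PE/CA-PJ41 cells, 9 of NCE and 6 of CYGB+. The authors' deposited scanner files hold the green intensity per spot from Feature Extraction 10.7.3.1, not normalised between arrays. A deposited table of log2 values, normalised by the authors, tracked the green channel (r 0.905 to 0.962 across arrays) and was used as an alternative. It is centred on the array median of each probe, its column medians ran from -0.161 to 0.183, and its scale beyond log2 is not given in the sources used here. The members and gene lists were chosen with earlier results of these data known.

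The median green signal, in place of the mean planned at first, was corrected against the median local background with normexp (offset 50) in limma 3.58.1 (R 4.3.3) and quantile normalised over 58717 non-control spots. Outlier spots were removed and spots of a probe averaged. Probes well above background on at least 50% of the arrays of a group were kept (22823). Repeat arrays were averaged to 3 biological replicates per group, which came from separate RNA extractions. The p-values of fits on these averages therefore measure the spread between extractions of the same cells. The random-effect fit and the fit with slide as a term used the single arrays. There the estimated correlation of repeat arrays was 0.18, so their p-values also rest on the spread between arrays. Moderated tests from lmFit and eBayes were adjusted by Benjamini-Hochberg over all kept probes, with a threshold of 0.05. The number of arrays limits the precision. 

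Same-numbered replicates of the groups deviated together (r 0.206, 0.228 and 0.299 for numbers 1 to 3), as did some pairs with different numbers (0.168, 0.211 and 0.286, the others -0.403 to -0.493), and a fit with the number as a block was run. Every family probe is named. From the other lists, called probes of at least 1.5-fold and the 3 brightest others are named. HRK and BMF are named only to show a limit of the filter. A few genes of the lists are not reported here and enter no list count. Alternatives were the scanner's processed signal, 75th percentile scaling, other filters, the block, the methods' t-test, repeat arrays with replicate as a random effect, slide as a term, slide 2 alone, leaving out each replicate and the deposited log2 table. The removal of 1 or 3 arrays that stand apart was added after the data were seen. The main limma fit was also run on simulated independent replicate values with known changes. Those values held no slide effect, no array that stands apart and no repeat arrays, so they do not bear on these limits. Promoter windows came from RefSeq.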

Additional observations from a re-analysis of the deposited data

Results flagged for a closer look

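Within groups of 6 or 9 arrays, 4 of the 28 group and probe combinations examined held an array that lay far from the nearest other one. Chance alone is expected to flag about 1 in 20 groups of independent arrays. Here repeat arrays share a replicate and all probes share the same arrays, so the 4 cannot be set against that rate. For BCL2L11 (A_33_P3251932), array repeat 1 of CYGB+ replicate 1 read 11.99, against 7.65 on the nearest CYGB+ array. The same array read 10.61 for BID (A_33_P3227041), against 11.64 on the nearest. For the other BID probe (A_24_P187948), array repeat 1 of CYGB+ replicate 3 read 12.06, against 11.76. For MCL1, array repeat 2 of NCE replicate 3 read 10.56, against 10.00. The red channel, whose content the labels do not give, had between 55.6% and 61.4% of probes well above background on every array.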

How the results depend on the processing

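Changes in a count of called probes are given here by setting, and no called difference changed sign. The family had 2 probes called lower, those of BIK and BCL2L1, and 0 called higher. Where the lower count fell to 1, BIK remained, except with slide as a term, where BCL2L1 remained. The lower count was 1 with the processed signal under either scaling, with 75th percentile scaling of the corrected signal, with a filter requiring all arrays above background, with the replicate block, with the methods' t-test, with slide as a term and without the NCE array on slide 2. It was 0 on slide 2 alone and in the deposited table, which holds no BIK probe, 1 to 2 when each replicate was left out, and 3 with replicate as a random effect and without 1 or 3 arrays that stand apart. The higher count was 1 with slide as a term, in the deposited table and without the array that stands apart, 2 without 3 such arrays and 3 with replicate as a random effect. For the other BCL2 homology genes the count of 1 became 0 with the processed signal under either scaling, 75th percentile scaling, the t-test, slide as a term, slide 2 alone and the deposited table, 2 with the block and without 3 arrays, 4 with the random effect, and 0 to 1 with a replicate left out. For mitochondrial exit the count of 3 became 1 with the processed signal, 75th percentile scaling and the deposited table, 0 with the t-test, slide as a term and slide 2 alone, 2 without a filter, 4 without 3 arrays, 6 with the random effect, and 0 to 2 with a replicate left out. For the regulators the count of 1 became 2 without a filter, with the block and without the NCE array on slide 2, 0 with the t-test and slide 2 alone, 8 with the random effect, 3 without 1 or 3 arrays that stand apart, and 0 to 1 with a replicate left out.

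Over all probes the 2422 calls became 1605 to 1950 with the processed signal, 1438 with 75th percentile scaling, 589 with the t-test (5504 at an unadjusted p under 0.05), 4945 with the random effect, 770 with slide as a term, 4 on slide 2 alone (2402 unadjusted), 4152 and 5083 without 1 or 3 arrays that stand apart, 1444 of 15031 in the deposited table, and 492 to 2407 with a replicate left out. Slide 2 alone rests on a single NCE array, assumed to vary like the CYGB+ replicates. The replicate block changed no other family call than that of BCL2L1. On the processed signal the BCL2 probe tested differed by 0.62 (limma adjusted p = 0.189), against 0.08 in the main setting. That signal lacks the offset, but it also has another background correction and may be scaled against the red channel. The part of the offset alone was not tested. The causes of the changed calls were not tested.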
